A study of Rattus norvegicus with 36 samples.

Results

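Slc26a4, which encodes the anion exchanger pendrin, was followed together with 9 genes of airway secretory cells in the lungs of rats instilled with crystalline silica. The genes were the mucins Muc5ac and Muc5b, the goblet cell genes Spdef and Agr2, the secretoglobins Scgb1a1, Scgb3a1, and Scgb3a2, the immunoglobulin receptor gene Pigr, and the lactoferrin gene Ltf. They were chosen by name, with their response to silica already known, and were measured by 11 of the 45598 probes on the array, so that these 10 genes are 10 of 23721 genes tested. Female Sprague Dawley rats, 13 weeks old at the start, were given DQ-12 at 10 mg per rat through the trachea, with saline as the vehicle, and control rats were given the saline only. Each of the 6 groups held 6 rats, with DQ-12 and vehicle groups at 1, 30, and 180 days after instillation (D1, D30, and D180). The RNA of the accessory lobe of each rat was labeled with Cy3 and hybridized to its own single-color Agilent array, giving 36 arrays.

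Pendrin sits in the apical membrane of epithelial cells, where it takes up chloride in exchange for bicarbonate, iodide, or thiocyanate. It is best known from the thyroid, the inner ear, and the kidney, and in airways it is known as a target of Il4, Il13, and Il17a. Goblet cells make the gel-forming mucins Muc5ac and Muc5b under the transcription factor Spdef and fold them with the help of Agr2, whereas club cells secrete Scgb1a1. Pigr carries dimeric IgA across the epithelium, and Ltf is an iron-binding protein of epithelial secretions and of neutrophil granules.

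The probes decide what could be measured, and those that matter for the values below are given 5′ to 3′ with their position on the rn4 build as deposited. The Slc26a4 probe carries the main result, and its bases span 1060 bases of chr6:49394773-49395832 on the minus strand, so that they cross at least 1 intron. The Muc5ac probe has no position in the files, and the Muc5b probe lies at chr1:201992377-201992436. Scgb1a1 (chr1:211759736-211759795, minus strand) represents the club cell genes and Ltf lies at chr8:115438446-115438505. Pigr is shown with both of its probes because they disagreed, at chr13:43802502-43802936 and, for the repeat probe, chr13:43804820-43804908.
Slc26a4: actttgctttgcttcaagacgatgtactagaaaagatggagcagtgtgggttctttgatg
Muc5ac: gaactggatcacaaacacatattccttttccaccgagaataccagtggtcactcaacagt
Muc5b: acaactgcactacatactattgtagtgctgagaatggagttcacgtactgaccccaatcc
Scgb1a1: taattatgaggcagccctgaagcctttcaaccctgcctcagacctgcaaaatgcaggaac
Ltf: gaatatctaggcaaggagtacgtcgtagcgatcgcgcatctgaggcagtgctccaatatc
Pigr: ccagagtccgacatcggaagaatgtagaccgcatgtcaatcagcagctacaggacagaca
Pigr repeat probe, first 30 bases: gaggaggaggaggaggaagaggaggaggag

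All 60 bases of the Pigr repeat probe are A or G, mostly as GAG and GAA triplets. The array holds 5 probes built of A and G alone, and their mean log2 signals lay between 15.65 and 16.17. How much of the signal of the Pigr repeat probe came from Pigr transcripts was not tested, and the other Pigr probe is given beside it. RefSeq places Slc26a4 at chr6:53835102-53873968 on the GRCr8 build and lists the probe accessions of 8 of the 10 genes, all but Muc5ac and Muc5b. Promoter windows of 300 bases around the start (RefSeq, GRCr8) were on hand for the same 8 genes and were searched on both strands. The forkhead-type letters TGTTTAC were in none of the 8 windows, against 3.78% of 33469 windows, and the STAT-type letters TTCNNNGAA only in that of Agr2, against 8.87%. A STAT6-type motif with the same outer letters and 1 more free base was in none (7.28% of all windows), and an NF-kappaB-type motif was in those of Slc26a4, Pigr, and Ltf (47.3%).

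Between 61.0 and 80.6% of spots per array were well above background, a call made for each spot by the scanner software, and no spot was saturated. The number of arrays limits the precision. Skeletal muscle transcripts stood out on 3 arrays (mean log2 signal of 9 muscle genes 9.39 in a vehicle D180 rat, 8.86 in a DQ-12 D1 rat, and 6.70 in a DQ-12 D30 rat, against at most 5.66 elsewhere), and results without these arrays are given where they changed a call. The 6 DQ-12 D1 arrays shared their scan date with 1 vehicle D1 array only. Both D30 scan dates held both groups, and 2 of the D180 dates did. The vehicle D1 array on the shared date was replicate 3, which alone shared a slide with DQ-12 D1 rats. At D180, vehicle replicate 4 and DQ-12 replicate 1 alone shared a slide across the groups. Values with scan date or slide as a block at D1, and with slide at D180, rest on these rats, so that only their sizes are given. Alveolar type 2 cell genes averaged 14.44 to 15.09 on the log2 scale on every array, so that the defining cells of the labeled tissue were represented throughout. Of the genes called at D1, 65.6% were higher, a share of 36.8% with 75th percentile scaling.

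Slc26a4 was higher in every DQ-12 rat than in any vehicle rat at all 3 time points. At D1, its log2 signal ran from 4.75 to 6.21 in vehicle rats (median 5.17) and from 8.84 to 9.85 in DQ-12 rats (median 9.32). The D30 vehicle rats lay between 4.46 and 5.43 (median 4.87) and the DQ-12 rats between 8.91 and 10.11 (median 9.41). The D180 vehicle rats lay between 4.11 and 6.18 (median 5.44) and the DQ-12 rats between 9.88 and 11.67 (median 10.28). The probe was well above background on all arrays except 1 vehicle array at D30. Thus the lowest DQ-12 rat at any time exceeded the highest vehicle rat at any time. The means differed by 4.03 at D1 (log2 fold change, SE 0.33, 16.4-fold), by 4.52 at D30 (SE 0.33, 23.0-fold), and by 5.22 at D180 (SE 0.33, 37.2-fold; n = 6 rats a group). No test is given for these differences, since the gene was chosen for them.

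**Figure D1:**
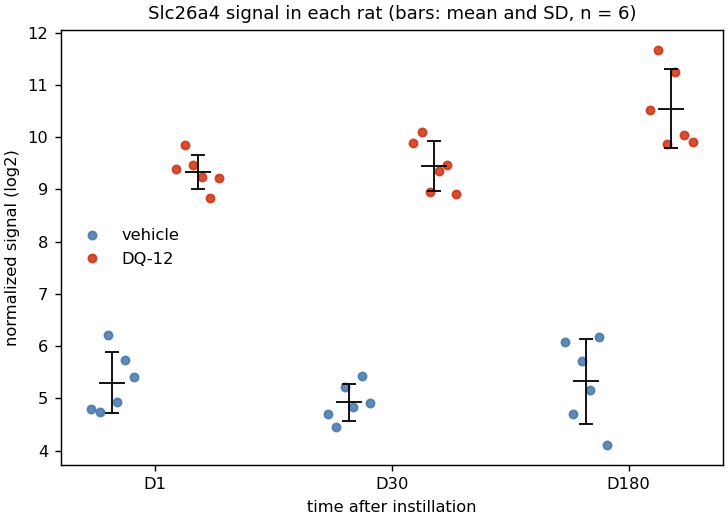
Normalized log2 signal of Slc26a4 (vertical axis) in each rat at D1, D30, and D180, with vehicle rats in blue and DQ-12 rats in red and bars for the mean and SD of 6 rats. The vehicle rats lie between 4.11 and 6.21 and the DQ-12 rats between 8.84 and 11.67, so that the groups are separate at each time point.

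Ordered by their means, the groups ran from vehicle D30 (4.93 ± 0.35, SD, n = 6) over vehicle D1 (5.30 ± 0.59) and vehicle D180 (5.33 ± 0.82) to DQ-12 D1 (9.34 ± 0.33), DQ-12 D30 (9.45 ± 0.48), and DQ-12 D180 (10.54 ± 0.75). The ranges of DQ-12 D1 and D30 overlapped, as did those of DQ-12 D30 and D180. The DQ-12 D180 rats all lay above the DQ-12 D1 rats, although the lowest of the former (9.88) and the highest of the latter (9.85) nearly met, and the log2 fold changes at D1 and D180 were 1.18 apart, given as a description only. Those groups were scanned on different dates, so that time and scan date cannot be told apart in this comparison.

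Among arrays scanned on the same date, Slc26a4 was higher by 3.13 at D1 (6 DQ-12 rats against 1 vehicle rat). The corresponding values on the D30 dates were 4.58 (1 DQ-12 rat against 4 vehicle rats) and 4.42 (5 against 2). On the D180 dates, they were 5.03 (3 against 3) and 5.34 (1 against 1). With normexp background correction, which compresses dim signals, the differences were 2.79, 3.08, and 3.87. In bulk tissue, fewer cells of a type and less RNA per cell cannot be told apart, nor can more cells and more RNA per cell.

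The other genes showed nothing of this size. A gene was called when the fold change (FC) was at least 2 and the adjusted p under 0.05 (limma, Benjamini–Hochberg). At D1, Slc26a4 and Muc5b were called higher, 2 of the 10 genes, against 2.04% of all genes tested. Slc26a4 alone was called at D30 (0.923% of all genes were called higher) and at D180 (2.89%). None of the 10 was called lower, against 1.07, 0.135, and 0.780% of all genes. These shares are background only, because the genes were chosen on the same contrasts. The median log2 fold change of the 10 genes was −0.24, −0.15, and −0.08 at the 3 time points, and that of all genes −0.012, −0.015, and −0.033.

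**Figure D2:**
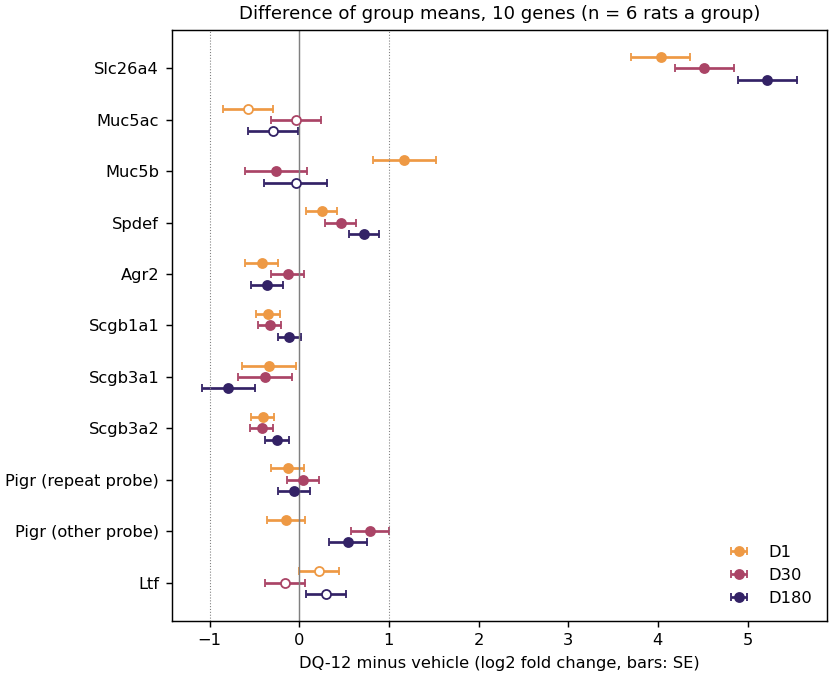
Difference between the DQ-12 and vehicle group means (horizontal axis, log2 fold change, bars for the SE) for the 10 genes at D1 (orange), D30 (red-purple), and D180 (dark blue), with both probes of Pigr. Open circles mark genes that no array of either group had well above background, and dotted lines mark a 2-fold change. Slc26a4 lies at 4.03 to 5.22, and every other gene lies at or below 1.17.

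The gel-forming mucins were near or under the limit of detection. Muc5ac, the mucin that marks goblet cells in large airways, was well above background on 0 of 36 arrays (group means 1.92 to 2.91), so that no fold is given. Muc5b was well above background on 2 of 6 vehicle and 5 of 6 DQ-12 arrays at D1. Its log2 signal there was 3.54, 2.28, 4.03, 3.71, 4.60, and 4.99 in the vehicle rats and 3.83, 5.63, 5.10, 5.05, 5.41, and 5.13 in the DQ-12 rats. Hence 5 of 6 DQ-12 rats exceeded every vehicle rat, while DQ-12 replicate 1 lay below 3 vehicle rats. The means differed by 1.17 (SE 0.35, 2.24-fold). Muc5b was no longer called with normexp correction (0.21) or with 75th percentile scaling (0.88), and without the arrays carrying muscle transcripts it differed by 1.09 and was not called. Against vehicle replicate 3 alone, it differed by 0.99 with scan date and by 0.96 with slide as a block. It was also not called without vehicle D1 replicate 2 or DQ-12 D1 replicate 2. At D30, it differed by −0.26 (SE 0.35), and at D180 no array of either group had it well above background.

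Spdef, the transcription factor that drives goblet cell differentiation, was above background in every rat. Its log2 signal was 10.10 to 10.56 in vehicle rats (median 10.39) and 10.36 to 10.82 in DQ-12 rats (median 10.65) at D1. The D30 vehicle rats lay between 9.85 and 10.26 (median 10.12) and the DQ-12 rats between 10.19 and 10.74 (median 10.62). The D180 vehicle rats lay between 9.03 and 10.46 (median 9.84) and the DQ-12 rats between 10.06 and 11.08 (median 10.51). The groups overlapped at each time point, and 4, 5, and 3 DQ-12 rats exceeded every vehicle rat. The differences were 0.25, 0.46, and 0.72 (SE 0.17 each), of which the last corresponds to 1.65-fold. It was 0.14 at D180 with slide as a block. Agr2, a protein disulfide isomerase that goblet cells need to fold mucins, differed in the other direction by −0.42, −0.13, and −0.36 (SE 0.18 each). At D1, Agr2 ran from 10.14 to 10.69 in vehicle rats (median 10.30) and from 9.62 to 10.21 in DQ-12 rats (median 9.93). The Agr2 ranges overlapped at each time point, and 4, 2, and 3 DQ-12 rats fell below every vehicle rat. With slide as a block, the D180 value of Agr2 was −0.85 on the same pair of rats.

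The secretoglobins differed by less than 2-fold at every time point. Scgb3a2, a secretoglobin of small airways, had log2 signals of 15.84 to 16.12 in vehicle rats (median 15.95) and 15.27 to 15.73 in DQ-12 rats (median 15.58) at D1. All 6 DQ-12 rats thus lay below all vehicle rats, as for 6.04% of all genes at that time, with a difference of −0.41 (SE 0.13, 1.33-fold lower). At D30, 5 DQ-12 rats were below every vehicle rat (−0.42), and at D180, 3 were (−0.25). The D180 value was −0.64 with slide as a block, from a single pair of rats. Scgb1a1, the main secreted protein of club cells, ran from 16.45 to 16.99 in vehicle rats (median 16.79) and from 16.29 to 16.52 in DQ-12 rats (median 16.41) at D1. It differed by −0.35 at D1, −0.33 at D30, and −0.11 at D180 (SE 0.13 each), with 4, 4, and 1 DQ-12 rats below all vehicle rats. The D1 difference was −0.04 among arrays of the same scan date, 6 DQ-12 rats against 1 vehicle rat.

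Scgb3a1, a secretoglobin of larger airways, showed the widest spread of the secretoglobins. At D180, it ran from 12.23 to 13.71 in vehicle rats (median 12.87) and from 10.98 to 12.73 in DQ-12 rats (median 12.34), and 2 DQ-12 rats lay below all vehicle rats. The difference was −0.34 at D1, −0.38 at D30, and −0.79 at D180 (SE 0.30 each, 1.73-fold lower at D180). With slide as a block, the D180 value was 0.50, from DQ-12 replicate 1 (12.73, the highest of its group) and vehicle replicate 4 (12.23, the lowest of its group) alone. Of 5 further secretoglobins tested, 0 were called at any time point, with medians of 0.03, 0.15, and 0.16 in log2 fold change, none of them past the 2-fold threshold.

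**Figure D3:**
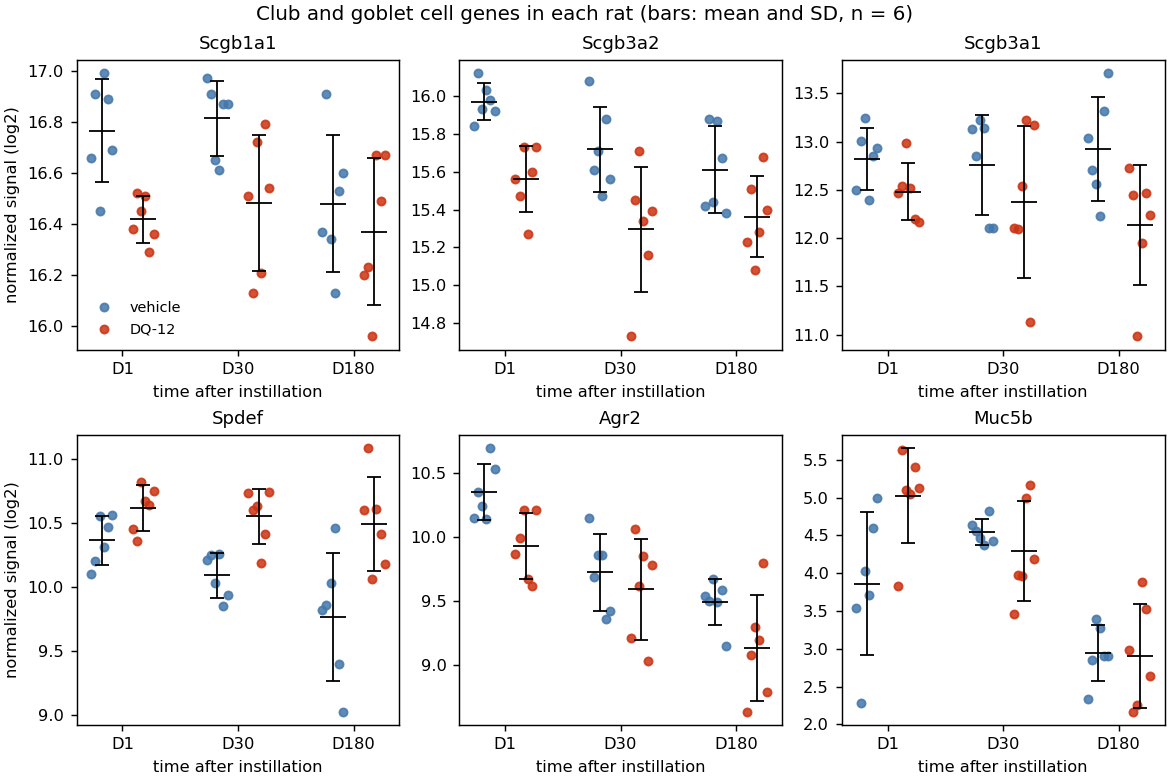
Normalized log2 signal (vertical axes, each with its own range) of Scgb1a1, Scgb3a2, Scgb3a1, Spdef, Agr2, and Muc5b in each rat at D1, D30, and D180, vehicle in blue and DQ-12 in red, with the mean and SD of 6 rats. The groups overlap except for Scgb3a2 at D1, where the DQ-12 rats end at 15.73 and the vehicle rats begin at 15.84.

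Markers of other airway cells were followed beside these genes. Of 9 club cell markers tested, Cyp2f4 (log2 fold change −1.08, SE 0.18, adjusted p = 6.92e-05, limma) and Cyp2a3 (−1.21, SE 0.26, adjusted p = 0.00106), both cytochrome P450 genes, fell at D1. Gabrp, a GABA receptor subunit, rose at D1 and at D180 (1.11 each, SE 0.31, adjusted p = 0.0131 and 0.0113). The list medians were −0.39, −0.33, and −0.58 at D1, D30, and D180. At D180, all markers but Gabrp and Cldn10 (0.72) differed downward, by less than 2-fold. Kcnk2 was the lowest (−0.91, adjusted p = 0.000268, limma). Over all genes, 2.04% were called higher and 1.07% lower at D1, and 2.89% higher at D180. Batch blocks were not examined for single marker genes, here or below. The mean log2 signal of the 9 markers per rat was 10.40 to 10.90 in vehicle and 10.03 to 10.61 in DQ-12 rats at D1, and 10.47 to 10.96 and 10.28 to 10.90 at D180. None of the 14 multiciliated, 8 basal, or 8 general epithelial markers was called at any time point. The multiciliated mean was 10.27 to 10.60 in vehicle and 10.07 to 10.35 in DQ-12 rats at D1. The part of cell numbers in the secretoglobin values was not tested.

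The Pigr probes gave different answers. The repeat probe read 15.93 to 16.89 in vehicle rats and 15.74 to 16.21 in DQ-12 rats at D1, and differed by −0.13, 0.04, and −0.06 at D1, D30, and D180 (SE 0.18 each), with overlapping groups throughout. On the other probe, the log2 signal at D30 was 11.31 to 11.95 in vehicle rats (median 11.66) and 12.08 to 12.89 in DQ-12 rats (median 12.39). All 6 DQ-12 rats therefore exceeded every vehicle rat on that probe, as for 1.83% of all genes, by a mean of 0.79 (SE 0.21, 1.73-fold). At D180, the groups overlapped on this probe (vehicle 10.93 to 12.62, DQ-12 11.71 to 12.52) and differed by 0.54. At D1, it differed by −0.15.

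The genes around IgA transport moved mainly late. Of 13 tested IgA and plasma cell genes, 0 were called at D1, 1 rose at D30, and 6 rose at D180, against 2.04, 0.923, and 2.89% of all genes, and the list medians were −0.09, 0.36, and 0.83. This and the following lists were chosen with earlier results of these data known, so that the p values of their genes are no independent test. Of the 26 genes called at D180 over these lists, 20 stayed called with scan date as a block. Slide as a block at D180 sets DQ-12 replicate 1 against vehicle replicate 4 alone, so that only sizes are given for it. Jchain, which joins IgA into the dimer that Pigr binds, ran from 11.71 to 12.70 in vehicle rats (median 12.49) and from 13.41 to 14.12 in DQ-12 rats (median 13.74) at D30. The D180 vehicle rats lay between 11.98 and 13.82 (median 12.85) and the DQ-12 rats between 13.91 and 15.94 (median 15.10). Every DQ-12 rat was above every vehicle rat at both times, as for 1.83 and 3.88% of all genes. Jchain rose by 1.36 (SE 0.30, adjusted p = 0.00556) and 2.27 (SE 0.30, adjusted p = 1.14e-06, limma). With slide as a block, the D180 value was 1.62.

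Igha, the heavy chain of IgA, rose 5.01-fold at D180 (SE 0.66 on the log2 scale, adjusted p = 0.012), with 5 of 6 DQ-12 rats above every vehicle rat, but was not called with scan date as a block (1.83). It was at 2.43 with slide as a block, from a single pair of rats. It was near background at D1, with log2 signals of 3.02 to 5.07 in vehicle rats and 2.05 to 2.72 in DQ-12 rats (adjusted p = 0.112). The plasma cell genes Tnfrsf17 (receptor of plasma cell survival factors, log2 fold change 2.13, adjusted p = 0.00143) and Mzb1 (a chaperone of antibody assembly, 2.05, adjusted p = 6.05e-08) rose at D180 as well. So did Irf4 (1.46, adjusted p = 1.16e-06) and Ccr10 (1.07, adjusted p = 0.00429), which were named after their values were seen. Tnfrsf17 was not called with scan date as a block (1.60). With slide as a block, again from that pair, Tnfrsf17 was at 1.03 and Mzb1 at 1.75. The difference of Jchain from vehicle changed by 2.81 between D1, where it was −0.55 and not called, and D180 (SE 0.43, adjusted p = 0.000124, limma interaction). Such interactions were called for 0.953% of all genes between D1 and D30, 0.139% between D30 and D180, and 1.6% between D1 and D180.

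**Figure D4:**
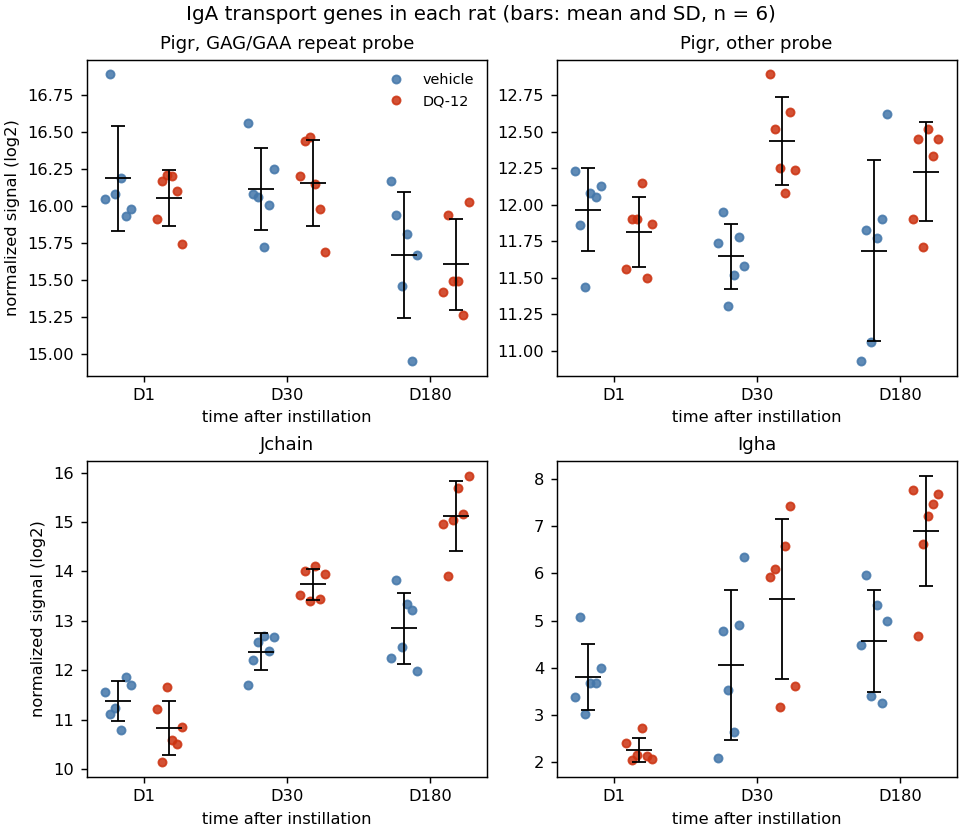
Normalized log2 signal (vertical axes, each with its own range) of both Pigr probes, Jchain, and Igha in each rat at D1, D30, and D180, vehicle in blue and DQ-12 in red, with the mean and SD of 6 rats. The DQ-12 rats lie above the vehicle rats at D30 on the Pigr probe outside the repeat, and at D30 and D180 for Jchain, and below them at D1 for Igha, where DQ-12 rats end at 2.72.

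Ltf was well above background on 0 of 36 arrays (group means 2.07 to 2.50), so that no fold is given. Neutrophil markers, whose cells store lactoferrin in their granules, were measured beside it. Of 14 such markers, 2 rose at D1, 4 at D30, and 7 at D180, against 2.04, 0.923, and 2.89% of all genes, and the others were not called. The mean log2 signal of the 14 per rat was 6.44 to 7.05 in vehicle and 7.46 to 7.97 in DQ-12 rats at D180. Il1r2, a decoy receptor for interleukin 1, rose at all 3 time points (2.98, 2.15, and 2.32, highest adjusted p = 4.30e-07), the only marker of the 14 called at each. Fpr1, a receptor for bacterial peptides, differed the other way, by −0.95 at D30 (adjusted p = 0.00238) and −0.57 at D180 (adjusted p = 0.0363), under the 2-fold threshold. The granule genes Camp, Prtn3, Ngp, Mpo, and Elane were not called at any time, and Elane was well above background on 0 arrays.

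Genes that share a function with pendrin were examined next. Of 8 other Slc26 exchangers tested, only Slc26a3 was called, and only at D1, where this chloride and bicarbonate exchanger fell by 1.08 on the log2 scale (SE 0.32, adjusted p = 0.0196). All 6 DQ-12 rats fell below every vehicle rat, as for 6.04% of all genes. With scan date as a block, the difference was −0.35, against vehicle replicate 3 alone, the lowest rat of its group. At D180, the 6 DQ-12 rats again fell below every vehicle rat for Slc26a3, with a value of −0.87 that was not called (adjusted p = 0.0621). Slc26a9, an epithelial chloride transporter, differed by 0.03, −0.31, and 0.41 (SE 0.19 each). The medians of the 8 genes were 0.08, −0.09, and 0.12. The share of all genes called lower at D1 was 1.07%.

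Of 19 other genes of anion, bicarbonate, and fluid transport, 0 were called at D1 and D30, and Kcnn4 alone was called at D180. Kcnn4, a calcium-activated potassium channel, was 3.88-fold higher at D180 (log2 fold change 1.96, SE 0.17, adjusted p = 3.01e-10), with all 6 DQ-12 rats above every vehicle rat, as for 3.88% of all genes. Its difference was 0.85 at D1 (adjusted p = 0.000488) and 0.64 at D30 (adjusted p = 0.0243), less than 2-fold. Cftr, the chloride channel that works with pendrin in airway epithelium, differed by 0.20, 0.57, and 0.45 (SE 0.21 each, lowest adjusted p = 0.13). Foxi1, the factor of ionocytes and of pendrin-bearing cells elsewhere, was well above background on 0 to 4 of 6 arrays per group and was not called. The list medians were 0.10, −0.01, and 0.07. The share of all genes called higher at D180 was 2.89%.

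The thiocyanate and peroxidase system uses an anion that pendrin can carry. Lactoperoxidase (Lpo) oxidizes thiocyanate with hydrogen peroxide from Duox1, and Duoxa1 brings Duox1 to the membrane. None of 7 genes was called at D1, 2 rose at D30, and 3 rose at D180, against 2.04, 0.923, and 2.89% of all genes called higher. The list medians were 0.20, 0.09, and 0.38. Lpo ran from 6.68 to 7.70 in vehicle rats (median 7.24) and from 7.01 to 8.12 in DQ-12 rats (median 7.23) at D1, where the groups overlapped (0.20, SE 0.34, adjusted p = 0.749). The D30 vehicle rats lay between 6.4 and 7.48 (median 7.05) and the DQ-12 rats between 8.09 and 9.87 (median 8.75). The D180 vehicle rats lay between 6.00 and 7.87 (median 7.26) and the DQ-12 rats between 10.05 and 12.53 (median 12.33). From D30 on, every DQ-12 rat was above every vehicle rat, as for 1.83% of all genes at D30 and 3.88% at D180. Lpo rose 3.63-fold at D30 (log2 fold change 1.86, SE 0.34, adjusted p = 0.000687) and 26.7-fold at D180 (4.74, SE 0.34, adjusted p = 7.66e-12, limma).

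The difference of Lpo from vehicle was larger at D180 than at D1 by 4.54 (SE 0.48, adjusted p = 7.48e-07, limma interaction) and than at D30 by 2.88 (SE 0.48, adjusted p = 0.00455). Duox1 rose by 1.07 at D30 (SE 0.24, adjusted p = 0.00709) and by 1.5 at D180 (SE 0.24, adjusted p = 2.43e-05). Duoxa1 rose by 1.32 at D180 (SE 0.19, adjusted p = 5.62e-06). All 6 DQ-12 rats were above every vehicle rat in each of these 3 cases, as for 1.83% of all genes at D30 and 3.88% at D180. Blocking on slide gave D180 values of 1.07 for Duox1, 1.15 for Duoxa1, and 5.18 for Lpo. They compare DQ-12 replicate 1 with vehicle replicate 4 only, so just their sizes are stated. Duox2 and Duoxa2 were not called at any time.

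**Figure D5:**
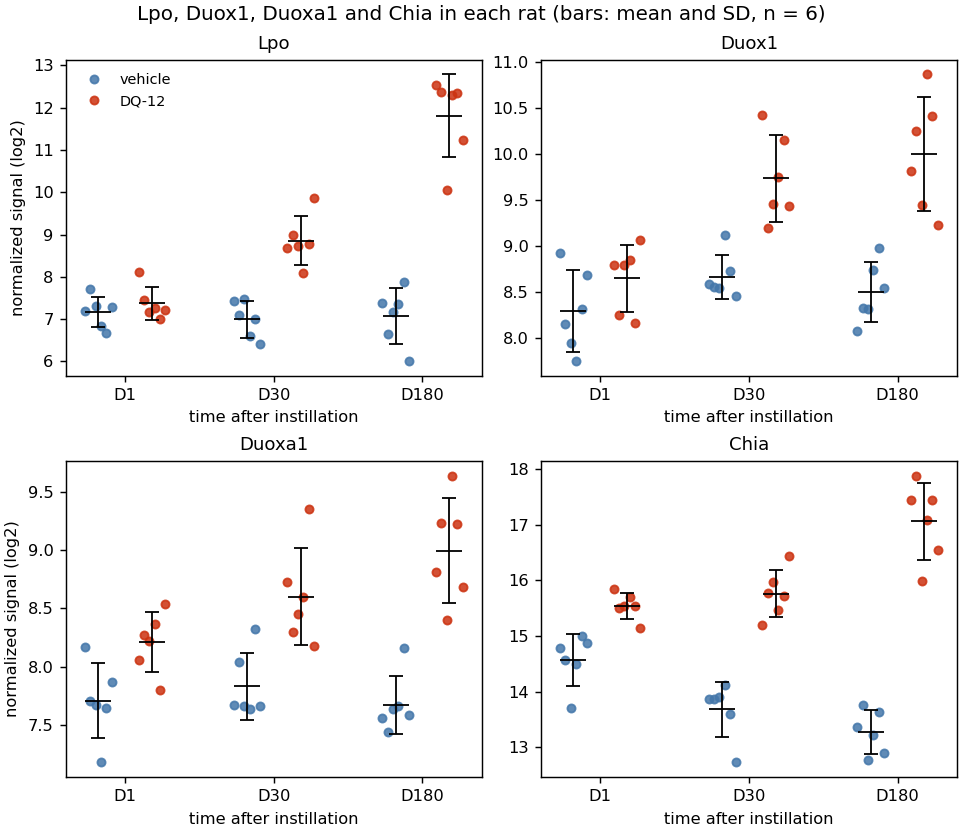
Normalized log2 signal (vertical axes, each with its own range) of Lpo, Duox1, Duoxa1, and the chitinase gene Chia in each rat at D1, D30, and D180, vehicle in blue and DQ-12 in red, with the mean and SD of 6 rats. Lpo overlaps between the groups at D1 and separates at D30 and D180, where the DQ-12 rats lie between 10.05 and 12.53.

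Secreted defence proteins were called higher at each time point. Of 17 tested, 2 rose at D1, 3 at D30, and 8 at D180, and 0 fell, against 2.04, 0.923, and 2.89% of all genes called higher, with list medians of 0.45, 0.75, and 0.77. The D1 calls were Lcn2 and Wfdc18, and scan date or slide as a block leaves vehicle replicate 3 alone at D1. Lpo is counted in this list too. Chia, the acidic chitinase of alveolar and airway epithelium, was higher by 0.97 at D1 (SE 0.27, adjusted p = 0.0101, under the 2-fold threshold), 2.09 at D30 (adjusted p = 3.22e-06), and 3.79 at D180 (13.8-fold, adjusted p = 4.46e-12). Bpifb1, a secreted protein of upper airway glands and goblet cells, rose by 1.62 at D30 (SE 0.33, adjusted p = 0.00254) and by 2.80 at D180 (adjusted p = 1.67e-07). Every DQ-12 rat exceeded every vehicle rat for both genes at both times, as for 1.83% of all genes at D30 and 3.88% at D180. Bpifa1, its relative in airway epithelium, differed by −0.05, −0.36, and −0.05 (SE 0.41 each) and was not called.

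Wfdc18, a secreted protease inhibitor, rose 8.06-fold at D1 (log2 fold change 3.01, SE 0.38, adjusted p = 7.96e-07), with 3 vehicle arrays well above background. Its difference from vehicle was lower at D30, with a value of −2.17 against D1 (adjusted p = 0.0234, limma interaction). The D1 value was 1.06 with normexp correction, and 2.50 with scan date or slide as a block, against vehicle replicate 3 alone. At D180, Wfdc18 rose by 1.65 (adjusted p = 0.00189), but by 0.47, not called, with normexp correction. Reg3b, an antibacterial lectin, rose by 3.14 at D180 (SE 0.55, adjusted p = 7.36e-05) but by 0.78, under the 2-fold threshold, with normexp correction. Its groups overlapped at D180 (vehicle 1.85 to 5.39, median 1.86, and DQ-12 4.81 to 6.29), with 1 vehicle array well above background. Lcn2, which binds bacterial siderophores and is made by epithelium and neutrophils alike, had the widest ranges. At D1, it ran from 7.47 to 12.75 in vehicle rats (median 8.17) and from 10.71 to 15.92 in DQ-12 rats (median 15.43). Its rise of 4.61 at D1 (SE 1.27, adjusted p = 0.0107) and of 4.69 at D180 (adjusted p = 0.00793) went with overlapping groups. Once scan date was a block, the D180 value was 2.90 and not called, and the D1 value was 5.83 against vehicle replicate 3 alone. Of the 14 neutrophil markers, 2, 4, and 7 were called higher at D1, D30, and D180, and their part in Lcn2 was not tested.

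Other goblet cell and mucus genes mostly stayed uncalled. The shares of all genes called higher were 2.04, 0.923, and 2.89% at the 3 time points, and 1.07% were called lower at D1. Of 21 goblet cell and mucus genes tested, 1 rose and 1 fell at D1, 0 were called at D30, and 3 rose at D180 (list medians 0.06, 0.16, and 0.24). The rises at D180 were those of the membrane mucins Muc20 (2.39, SE 0.33, adjusted p = 2.64e-06) and Muc4 (1.99, SE 0.40, adjusted p = 0.000488) and of the lectin Itln1 (1.47, SE 0.51, adjusted p = 0.0404). With slide as a block, which leaves a single pair of rats, these 3 were at 1.98, 2.46, and 2.30. Muc4 was under the 2-fold threshold with normexp correction (0.88), where Muc20 was at 1.01. Itln1 also rose at D1 (1.58, adjusted p = 0.0285), but with 1 DQ-12 rat above every vehicle rat, and the value turned to −1.36 once scan date was a block. Gcnt3, a mucin glycosyltransferase, fell at D1, 1.01-fold against the detection level (adjusted p = 0.0263), with 3 vehicle and 0 DQ-12 arrays well above background. Clca1, which goblet cells secrete with mucins, differed by 1.08, 0.16, and −0.27 (SE 0.56 each) and was not called.

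The ligands known to induce pendrin in airways were dim. Il13 was well above background on 1 to 4 of 6 arrays per group and differed by 0.17, −0.64, and 0.71 (SE 0.47 each), and Il4 on 1 of 6 arrays in every group, with neither called. Il17a was higher at D180, 1.72-fold against the detection level (adjusted p = 0.000719), with 0 vehicle and 3 DQ-12 arrays well above background. Il5, which sustains eosinophils, and Il25, a cytokine of tuft cells, fell at D180. Il5 was at −1.73 (adjusted p = 0.0211), and Il25 was 1.68-fold lower against the detection level (adjusted p = 0.00871). Il17a, Il25, and Il5 were not called with normexp correction (0.24, −0.23, and −0.56). Il5 was at 0.12 with slide as a block, from DQ-12 replicate 1 and vehicle replicate 4 alone. It was at −1.53, no longer called, without the arrays carrying muscle transcripts.

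Of all 21 ligands, 1 rose at D1, 1 at D30, and 3 at D180, and 2 fell at D180, with medians of 0.17, −0.02, and 0.31. The shares of all genes called higher were 2.04, 0.923, and 2.89%, and 0.780% were called lower at D180. The rise at D1 was that of the Egfr ligand Areg (1.64, SE 0.32, adjusted p = 0.000368, all 6 DQ-12 rats above every vehicle rat, as for 5.28% of all genes). Tnf, an inflammatory cytokine, rose at D30 (1.34, adjusted p = 2.78e-05) and D180 (1.31, adjusted p = 6.95e-06), the latter at 1.90 with slide as a block, from a single pair of rats. Il1b, named after its value was seen, rose at D180 (1.17, adjusted p = 7.36e-05). Of 18 receptor and signaling genes, the cytokine feedback inhibitor Socs1 rose at D1 (1.17, adjusted p = 0.0348) and Zc3h12a, an RNase that limits Il17 signaling, at D180 (1.29, adjusted p = 6.52e-07), by 0.91, under the 2-fold threshold, with normexp correction. The medians of that list were −0.16, 0.05, and −0.02. Once scan date was a block, which leaves vehicle replicate 3 alone at D1, Areg was at 1.01 and Socs1 at 0.18. That rat was the highest of the vehicle D1 group for both genes (9.79 and 5.65). Whether the 7 list genes called at D1 depend on scan date or slide can thus not be told.

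Thyroid genes were checked because pendrin is abundant in that gland. Of 7, Slc5a5, the iodide transporter, rose at D1 (adjusted p = 0.00217, 0 vehicle and 5 DQ-12 arrays well above background) and Pax8 at D180 (1.45, SE 0.26, adjusted p = 9.17e-05). The shares of all genes called higher were 2.04% at D1 and 2.89% at D180. The defining gene Tg, which encodes thyroglobulin, differed by −0.33, −0.04, and −0.10 (SE 0.17 each) and was not called. The mean log2 signal of the 7 genes was 8.12 to 8.77 in vehicle and 8.45 to 9.18 in DQ-12 rats at D1, and 8.02 to 8.63 and 8.42 to 9.31 at D180.

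Vehicle rats show how the 10 genes varied without silica. The choice of the genes did not use comparisons between vehicle groups, although the same vehicle values enter the contrasts that it did use. The vehicle groups of different days shared no scan date, so that age, time, and scan date cannot be told apart. Slc26a4 differed by −0.38 from D1 to D30, 0.40 from D30 to D180, and 0.03 from D1 to D180 (SE 0.33 each, lowest adjusted p = 0.475, limma). None of the 10 genes was called between D1 and D30 (2.77% of all genes were) or between D1 and D180 (1.76%), and 1 was called between D30 and D180 (2.73%). This was Muc5b, which fell, as 0.818% of all genes did. The vehicle rats lay between 4.37 and 4.82 at D30 and between 2.34 and 3.4 at D180, without overlap (exact permutation test over all 924 splits, 2-sided p = 0.00216, the smallest possible; adjusted p = 0.00306, limma). With 2 vehicle arrays well above background at D30 and 0 at D180, Muc5b was 1.81-fold lower against the detection level. The D30 mean includes arrays not well above background, and Muc5b was not called with normexp correction.

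Agr2 was lower in vehicle rats by 0.63 at D30 than at D1 (SE 0.18, adjusted p = 0.0269). At D180, its difference from D1 was −0.86 (adjusted p = 0.00179), and all 6 vehicle D180 rats lay below all vehicle D1 rats. Spdef differed by −0.60 from D1 to D180 (SE 0.17, adjusted p = 0.0204). These 3 differences were under 2-fold. Muc5ac and Ltf stayed near background in all vehicle groups. The DQ-12 rats held Agr2 at 9.93, 9.59, and 9.13 and Spdef at 10.61, 10.55, and 10.49 (mean log2 signals at D1, D30, and D180), so that the later differences of Spdef from vehicle went with lower vehicle means (10.37, 10.09, and 9.77). The secretoglobins and the Pigr repeat probe had adjusted p values of 0.0607 or more in these comparisons, and the other Pigr probe differed by −0.32, 0.04, and −0.28 (SE 0.21 each, lowest adjusted p = 0.365, adjusted over probes).

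Across the 36 arrays, the genes whose log2 signal followed that of Slc26a4 most closely were LOC102551003 (Pearson r = 0.977) and Mmp12 (0.976), followed by C3 (0.961), Ccl2 (0.961), Spp1 (0.958), and LOC102550137 (0.956). Mmp12 is the macrophage elastase, C3 a complement component, Ccl2 a monocyte chemokine, and Spp1 encodes secreted phosphoprotein 1. The arrays share their 6 groups, which set most of these values. Within groups, the correlations of the deviations from the group means were 0.734, 0.683, 0.680, 0.502, 0.481, and 0.538 in the same order. For Spdef, r was 0.61 over the arrays and 0.365 within groups, for Scgb3a2, −0.599 and −0.109, and for Scgb1a1, −0.555 and −0.265.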

How the data were processed

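The authors scanned 1 single-color array per rat with Feature Extraction 12.0.1.1 (submitters' processing notes) and deposited intensity values per spot. Their deposited log2 values equal log2 of that intensity after background correction, scaled to the 75th percentile and then centered per probe on its median over the arrays (median absolute difference 0.00177). The study's methods give quantile filtering and normalization, an unnamed batch correction, and limma.

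Here, the background-corrected intensity (gProcessedSignal) was put on the log2 scale, outlier spots (232 to 596 of 58717 per array) were left out, and spots of a probe were averaged. Probes above the 95th percentile of 308 negative controls on at least 6 arrays were quantile normalized, and the brightest probe represented a gene. limma 3.58.1 in R 4.3.3 fitted 6 group means to 36 arrays without a batch term, with Benjamini–Hochberg adjustment over 23721 genes. The fit was tested on simulated data. Where all arrays of a group lacked a signal well above background, a fold "against the detection level" sets the brighter mean against the detection level of the dimmer group. The brighter mean includes arrays not well above background, so that such a fold is not a strict lower bound.

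The 10 genes and the gene lists were chosen with earlier results of these data known. All 10 genes were named, of each list at most the 4 called genes with the largest change per time point, and the 6 genes most like Slc26a4. List genes named without a call (such as Cftr, Slc26a9, Il13, and Bpifa1) and single marker genes were chosen after their values were seen. Alternatives changed the background correction, scaling, filter, probe choice, batch blocks, model, and threshold, and each rat was left out in turn. Leaving out the arrays with muscle transcripts (mean above 6.5) and using the other Pigr probe were chosen after seeing the data. The labels do not say that rats of a group came from separate litters. Probe sequences and positions are those of the array files, and promoters and symbols those of RefSeq (GRCr8). A genome sequence was not used here.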

Additional observations from a re-analysis of the deposited data

Results flagged for a closer look

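The difference between DQ-12 and vehicle rats changed with time for several genes around the 10, by at least 2-fold in limma interaction tests (15 of 75 comparisons of 25 genes passed, adjusted over all genes). Between D1 and D180, it grew by 4.54 for Lpo, 3.87 for Igha, 2.99 for Tnfrsf17, 2.81 for Jchain, 2.81 for Chia, 2.36 for Mzb1, 2.24 for Muc20, 2.01 for Bpifb1, 1.15 for Duox1, and 1.1 for Kcnn4. Between D30 and D180, it grew by 2.88 for Lpo, 1.70 for Chia, and 1.32 for Kcnn4. Between D1 and D30, it grew by 1.90 for Jchain, whereas that of Wfdc18 was lower at D30, with a value of −2.17. The time points were scanned on different dates, and time and scan date cannot be told apart here. Igha was near background in the DQ-12 D1 rats (2.05 to 2.72, 0 arrays well above background). Neither Igha nor Tnfrsf17 stayed called at D180 with scan date as a block.

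Single rats stood far from their group in 7 of 66 groups of 6 rats, where chance gives about 1 in 20. Muc5b in DQ-12 D1 replicate 1 was 3.83, against 5.05 to 5.63 in the other rats of the group. The Pigr repeat probe in vehicle D1 replicate 2 was 16.89, against 15.93 to 16.19, and Agr2 in vehicle D180 replicate 6 was 9.15, against 9.49 to 9.67. The others were not well above background, namely Ltf in vehicle D1 replicate 1 (2.63) and DQ-12 D1 replicate 3 (3.33) and Muc5ac in vehicle D30 replicate 4 (2.22) and DQ-12 D180 replicate 4 (3.07).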

How the results depend on the processing

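Slc26a4 was higher in DQ-12 rats at each time point under every alternative run, and was called in those with more than 1 rat in each group. Its log2 fold change moved beyond the spread between replicates with normexp correction (2.79, 3.08, and 3.87 at D1, D30, and D180) and at D1 with scan date (3.13) or slide (3.18) as a block, and ran from 3.92 to 4.22, 4.39 to 4.63, and 4.97 to 5.39 with 1 rat left out. Of the 10 genes, 2 were called at D1, but 1 with 75th percentile scaling, the deposited log2 values, normexp, the filter on probes well above background, slide as a random block (correlation 0.388), each time point alone, or the muscle arrays left out, and 1 to 2 with 1 rat left out (1 without vehicle D1 replicate 2 or DQ-12 D1 replicate 2). At D180, 2 were called at a fold change of 1.5. Of vehicle differences, 0 were called from D1 to D30 and from D1 to D180, but 1 each with 75th percentile scaling and with the deposited values, and 0 to 1 with 1 rat left out (1 without vehicle D1 replicate 3 or 6 or vehicle D30 replicate 4 for the former, and without vehicle D1 replicate 2 for the latter). From D30 to D180, 1 was called, but 0 with normexp or the stricter filter, which left 16906 genes and 7 of the 10. Scan date and slide blocks could not be fitted to vehicle differences. List genes called at D1 numbered 7, but 4 with normexp (4 of the 7), 4 with slide as a random block (3 of the 7), 14 at a fold change of 1.5, and 4 to 8 with 1 rat left out (4 without vehicle D1 replicate 2 or DQ-12 D1 replicate 3). At D30 they numbered 6, and 15 at a fold change of 1.5, and at D180, 26, but 16 with normexp (16 of the 26). Signs turned for Itln1 at D1 with scan date (−1.36) and slide (−1.76) and for Il5 at D180 with slide (0.12). The Itln1 values rest on vehicle D1 replicate 3 alone (11.24, against 7.05 to 8.40 in the other vehicle rats). The Il5 value rests on DQ-12 D180 replicate 1 (5.03) and vehicle D180 replicate 4 (4.91) alone. What moved the other values was not tested.

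Over all genes, 739, 251, and 871 were called at D1, D30, and D180, and 213, 102, and 327 with normexp (83.1, 98.0, and 94.5% higher, against 65.6, 87.3, and 78.8%). At D1, 486 were called with slide as a random block. For vehicle D30 against D1, 656 were called, but 1718 with 75th percentile scaling, where 1.40% were higher in place of 26.2% and the median of all genes moved from 0.04 to −0.072. The shares from D30 to D180 and from D1 to D180 went from 70.0 to 91.5% and from 44.0 to 11.7%. Vehicle counts of 656, 647, and 418 were 63, 79, and 60 with normexp, 297, 312, and 270 with the stricter filter, and 274, 422, and 200 with slide as a random block, and that from D1 to D180 was 261 without the muscle arrays. Replicate numbers did not pair the rats (r −0.13 to 0.22 over 18 pairs, 6 of them over 0.1, 3 best with their own number), and the replicate block left all 103 results on the same side, with Slc26a4 at 4.03, 4.52, and 5.22. Dim probes limit Muc5ac, Muc5b, and Ltf.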
